A study of Mus musculus with 73 samples.

Results

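Germline genes encode proteins that cells use to make eggs and sperm, and a few of them are transcribed at low levels in mouse embryonic stem (ES) cells. The 10 described here are Hormad1, Fkbp6, Catsperz, Dazl, Ddx4, Sycp1, Sycp3, Mael, Stk31 and Stag3, out of 37310 gene identifiers in the RNA count table, and each symbol matched 1 identifier. They were chosen by name from results of the 40kb comparison below, in which Hormad1, Fkbp6 and Catsperz stood out, with further germline genes around them. Their values in that comparison are therefore a description without a test. The 70kb comparison and the comparison of the 70kb clones with each other were tested. All 10 passed the filter on low counts, as did 16636 genes in all.

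The 12 RNA libraries came from E14Tg2a, a male (XY) mouse ES cell line of strain 129/Ola and were cultured feeder-free on gelatin with serum and leukemia inhibitory factor (LIF). The study of 73 samples edited the X-inactivation centre, the X-linked region of the silencing RNA Xist and of Tsix, its antisense gene. The allele 40kb [Tsix-Xist] was sequenced in 2 clones and the allele 70kb [Xite-Jpx] in 2 other clones, with 2 replicates of each clone. Each set had 2 wild-type libraries of its own, which the titles tie to that set and which carry different cell names in the count table. The titles do not say whether the alleles are inversions or deletions. Each allele thus rests on 2 clonal lines, and nothing in the labels says that the replicates were separate cultures. The comparisons with wild type count the 4 libraries of an allele as independent, although they come from 2 clones. Their spread mixes differences between clones with those between replicates, which may be technical only. In the comparison of the 70kb clones, the p-values may measure technical spread only.

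In meiosis, each chromosome is folded along a protein axis held by special cohesins, partner chromosomes are joined by the synaptonemal complex, and DNA breaks are repaired between partners. In male germ cells, granules rich in RNA hold the machinery that makes piRNAs, small RNAs that silence transposons. In other cells most of these genes are kept off by DNA methylation of promoters rich in CpG, by methylation of histone H3 at lysine 9, and by PRC1.6, a Polycomb complex whose subunits MGA with MAX bind the E-box CACGTG and whose subunit E2F6 binds an E2F site. ES cells in serum carry this repression, and it is known to be incomplete.

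The promoters of the members were searched for these letters. RefSeq promoters (build GRCm38.p6) were found for all 10. The search covered the 250 bases before the annotated start, for CACGTG, which reads alike on both strands, and for the E2F-type letters GCGGGA or their reverse complement TCCCGC. The E-box was present before 8 of 10 starts, against 6.05% of 27025 promoters of the same length and 8.36% of those of tested genes. The E2F-type letters stood before 5 of 10 starts, against 16.9% of all promoters and 30.2% of those of tested genes. No match of one motif shared a base with a match of the other. The 10 windows held 7 to 31 CpG, with a median of 18.5. The median was 6 over all promoters and 15 over those of tested genes. CpG content goes with the E-box share: among the 7436 promoters with at least 15 CpG, 9.92% held CACGTG, and 7 of the 8 such members did. For the E2F-type letters the members did not stand above such promoters, with 3 of 8 members against 42.7%. The other germline genes of the lists used below differed from the members: of 59 with a promoter, 16.9% held the E-box and 28.8% the E2F-type letters, with a median of 11 CpG. A match gives the presence of letters, and no binding was measured here.

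The windows of 6 members follow because their levels differ in kind. Hormad1, Fkbp6, Catsperz and Stag3 were above wild type in every 40kb library, Sycp3 was level across the groups, and Dazl was high in 1 library. Each is written 5′ to 3′ and ends at the base before the annotated start, and capitals mark CACGTG.
Hormad1, chr3:95559427-95559676, plus strand: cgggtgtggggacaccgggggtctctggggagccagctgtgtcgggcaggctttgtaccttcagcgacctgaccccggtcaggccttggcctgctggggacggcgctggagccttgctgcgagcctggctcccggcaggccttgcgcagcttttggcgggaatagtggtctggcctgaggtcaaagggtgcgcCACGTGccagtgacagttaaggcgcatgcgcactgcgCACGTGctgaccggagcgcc
Fkbp6, chr5:135350045-135350294, minus strand: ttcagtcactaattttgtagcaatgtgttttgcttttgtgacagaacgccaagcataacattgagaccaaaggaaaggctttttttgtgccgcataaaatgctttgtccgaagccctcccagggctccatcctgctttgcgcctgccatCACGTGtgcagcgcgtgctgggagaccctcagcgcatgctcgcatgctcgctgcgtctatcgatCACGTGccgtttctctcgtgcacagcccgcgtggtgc
Stag3, chr5:138280259-138280508, plus strand: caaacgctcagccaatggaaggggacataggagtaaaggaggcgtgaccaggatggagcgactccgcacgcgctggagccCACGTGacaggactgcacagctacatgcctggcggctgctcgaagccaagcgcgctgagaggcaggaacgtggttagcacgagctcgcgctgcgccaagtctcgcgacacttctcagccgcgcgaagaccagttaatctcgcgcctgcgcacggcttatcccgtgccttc
Catsperz, chr19:6925381-6925630, minus strand: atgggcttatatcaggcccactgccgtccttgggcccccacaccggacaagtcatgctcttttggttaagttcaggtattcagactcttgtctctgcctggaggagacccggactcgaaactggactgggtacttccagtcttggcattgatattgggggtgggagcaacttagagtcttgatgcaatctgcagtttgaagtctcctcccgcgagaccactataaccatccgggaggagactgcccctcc
Sycp3, chr10:88459337-88459586, plus strand: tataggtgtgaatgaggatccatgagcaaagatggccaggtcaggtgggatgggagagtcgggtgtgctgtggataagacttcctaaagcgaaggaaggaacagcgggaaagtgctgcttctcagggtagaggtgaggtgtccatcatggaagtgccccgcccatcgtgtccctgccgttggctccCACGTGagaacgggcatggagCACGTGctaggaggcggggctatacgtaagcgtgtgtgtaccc
Dazl, chr17:50293621-50293870, minus strand: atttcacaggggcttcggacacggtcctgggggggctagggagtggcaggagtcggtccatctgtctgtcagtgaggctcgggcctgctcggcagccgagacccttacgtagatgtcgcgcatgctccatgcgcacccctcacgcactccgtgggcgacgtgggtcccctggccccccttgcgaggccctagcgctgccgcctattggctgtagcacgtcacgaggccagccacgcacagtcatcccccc

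Counted back from the start, the E-boxes of Hormad1 end 52 and 15 bases before it, those of Fkbp6 96 and 32, those of Sycp3 59 and 38, and that of Stag3 165. The E-box of Ddx4 ends at 24, that of Stk31 at 50, that of Sycp1 at 89 and that of Mael at 218. Catsperz and Dazl have none in this window, and Catsperz has the fewest CpG of the 10 (7). Hormad1, Fkbp6 and Sycp3 thus each have a pair of E-boxes, and Hormad1 and Fkbp6 were above wild type in all 40kb libraries while Sycp3 was not.

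**Figure D1:**
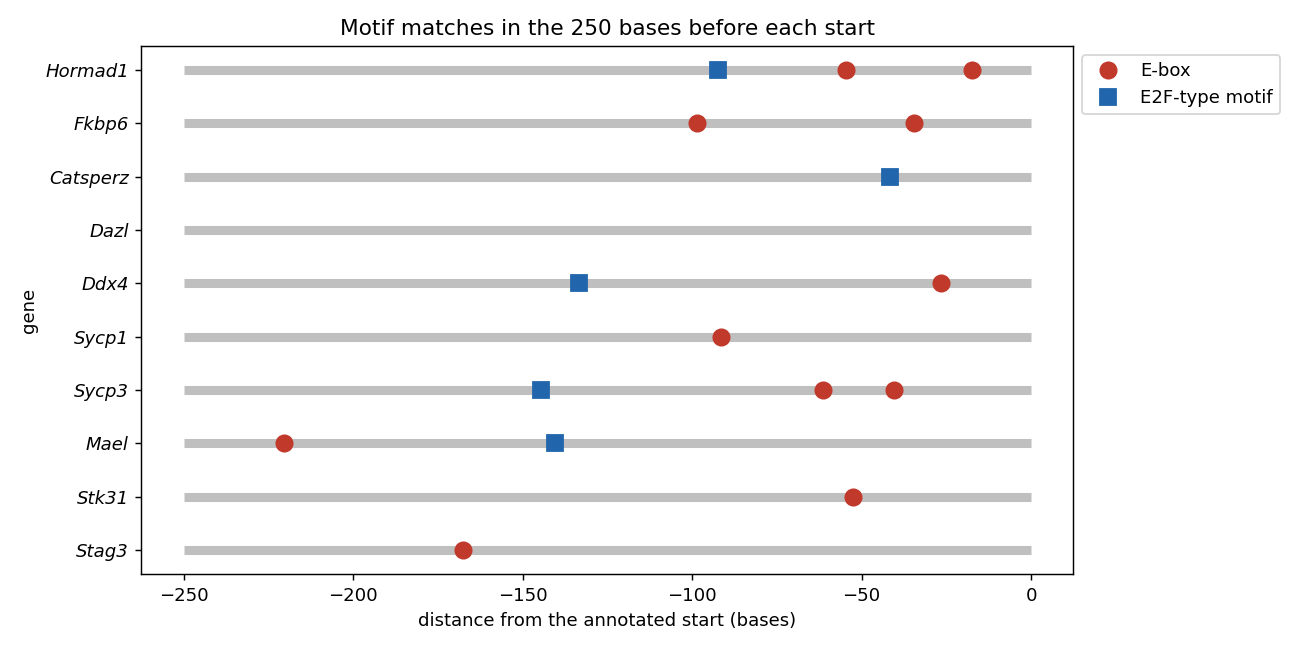
Matches to the E-box CACGTG (red circles) and to the E2F-type letters (blue squares) in the 250 bases before the annotated start of each gene, with the distance from the start in bases on the horizontal axis. Of the 10 windows, 8 hold an E-box and 5 an E2F-type match, and Dazl holds neither.

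Library totals ran from 34514493 to 46605508 counts. Levels are counts relative to library size (CPM, per 1e6 counts), scaled with edgeR's TMM factors and not corrected for gene length, so they compare libraries and not genes. The library 40kb clone 1 replicate 1 stood apart from the other 11. It had the largest total, 3.98% of its counts on mitochondrial genes against 1.86% to 2.48% elsewhere, and 24.1% of its counts in its 100 top genes against 18.8% to 21.6%. It was the highest of the 12 libraries for 27.6% of all genes tested and the lowest for 27.4%. The members' folds of means in the 40kb comparison are therefore given with and without it. These are bulk libraries, in which fewer cells with a transcript and less transcript per cell cannot be told apart.

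The cells carried the ES identity that their labels give. Pou5f1, the defining ES transcription factor, was at 775 to 1356 CPM in the 12 libraries, and Dppa5a, the ES marker with the most reads, at 1253 CPM or more. Markers of the somatic cells of the testis summed to 2.14 to 3.75 CPM, and their Hsd3b1 had 0 counts in all libraries. Of 18 sperm and spermatid genes, 7 passed the filter on low counts, among them Catsperz, Catsperd, Catsper2 and Ldhc, with at most 275, 230, 112 and 127 counts in a library. Prm1, Prm2, Tnp1, Acrv1, Akap4 and Catsper1 had 0 counts in every library, which allows up to 3 counts in each, by counting error alone.

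Of the chromosome axis, Hormad1 and Stag3 were above wild type in every 40kb library. Hormad1 (ENSMUSG00000028109.8) encodes a protein of the meiotic axis that marks partner chromosomes not yet joined. Its 2 control libraries in the 40kb set read 14.15 and 11.9 CPM, and the 40kb allele read 100.7 and 36.7 in clone 1 and 35.0 and 28.6 in clone 2. The groups did not overlap, and clone 1 replicate 1 lay far above the other 3. The mean was 50.2 ± 33.8 (SD, n = 4) CPM against 13.01 ± 1.61 (SD, n = 2), a fold of 3.86, or 2.57 without clone 1 replicate 1. The fitted log2 fold change was 1.95 with an SE of 0.48.

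The other wild-type cells gave another picture for Hormad1. Those of the 70kb set held 34.3 and 24.9 CPM, a mean of 29.6 ± 6.65 (SD, n = 2). That is inside the range of the 40kb libraries other than clone 1 replicate 1 or just below it, although the cells carry no edit. Set against this wild type, the log2 difference of the 40kb allele was 0.76. The height of Hormad1 in the 40kb comparison thus depended on which wild type it was set against, and the set and the wild-type cells cannot be told apart.

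Stag3 (ENSMUSG00000036928.8) encodes the meiotic subunit of cohesin, the ring that holds sister chromatids. It read 47.9 and 37.0 CPM in its 40kb-set controls, 148 and 75.6 in 40kb clone 1 and 63.9 and 69.3 in clone 2. All 4 lay above both controls and again clone 1 replicate 1 stood out. The fold of means was 2.10, or 1.64 without that library. The unedited cells of the 70kb set had Stag3 at 60.7 and 38.0 CPM, below all 40kb libraries.

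The 2 members of the synaptonemal complex overlapped wild type. Sycp3, a core protein of its lateral elements and the member with the most reads, was at 75.6 and 51.0 CPM in the wild type and at 74.1, 82.0, 43.9 and 55.5 in the 40kb libraries. The mean was 63.9 ± 17.3 (SD, n = 4) against 63.3 ± 17.4 (SD, n = 2), a fold of 1.01, or 0.955 without clone 1 replicate 1. Sycp1, which spans the gap between partner chromosomes, was at 3.23 and 4.15 CPM in wild type and at 6.12, 2.50, 3.24 and 2.35 in the 40kb libraries. Its fold of means was 0.963 with clone 1 replicate 1 and 0.730 without it.

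Fkbp6 and Catsperz had the widest relative range. Fkbp6 (ENSMUSG00000040013.7), an FK506-binding co-chaperone needed for piRNA production, was at 1.58 and 1.01 CPM in its 40kb-set controls. The 40kb libraries held 16.4 and 7.14 CPM in clone 1 and 7.84 and 4.25 in clone 2. No 40kb library overlapped these controls, the fold of means was 6.87, and it was 4.94 without clone 1 replicate 1. The unedited cells of the 70kb set had it at 4.47 and 1.77 CPM, so that their replicate 1 lay above 40kb clone 2 replicate 2. The highest library was 16.2-fold above the lowest of the 12, from 40 to 717 counts.

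Catsperz (ENSMUSG00000050623.4) encodes an auxiliary protein of CatSper, the calcium channel of the sperm tail. Its levels in wild type were low, at 0.756 and 0.557 CPM. They were 6.28 and 1.22 CPM in 40kb clone 1 and 3.02 and 2.01 in clone 2. Again all 4 lay above both controls, with a fold of means of 4.78, or 3.18 without clone 1 replicate 1. The unedited cells of the 70kb set had it at 1.52 and 0.884 CPM, so that 40kb clone 1 replicate 2 fell between those 2.

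Of the germ granule genes, Stk31, Mael and Dazl were high in 1 library and near wild type in others. Dazl, an RNA-binding protein needed to form germ cells, was at 7.88 and 7.04 CPM in wild type. In the 40kb set it read 21.8 CPM in clone 1 replicate 1 but 9.71, 10.8 and 6.60 in the others, which overlapped wild type. Its fold of means was 1.64, or 1.21 without clone 1 replicate 1. Mael, a piRNA pathway protein, was at 33.4 CPM in clone 1 replicate 1 and at 9.41, 16.4 and 8.73 in the others, around the 10.6 and 14.099 of wild type. Its fold of means was 1.38 with that library and 0.932 without it.

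Stk31, a kinase-like Tudor-domain protein of germ cells, was at 30.7 CPM in clone 1 replicate 1 and at 12.9, 12.1 and 7.41 in the other 40kb libraries, against 8.45 and 8.23. Its fold of means was 1.89, or 1.29 without clone 1 replicate 1. Ddx4, the RNA helicase Vasa that defines germ granules, went the other way. It was at 23.5 and 32.5 CPM in the wild type and at 24.4, 15.7, 17.6 and 15.9 in the 40kb libraries. Only clone 1 replicate 1 lay among the controls, and the fold of means was 0.659, or 0.587 without that library.

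**Figure D2:**
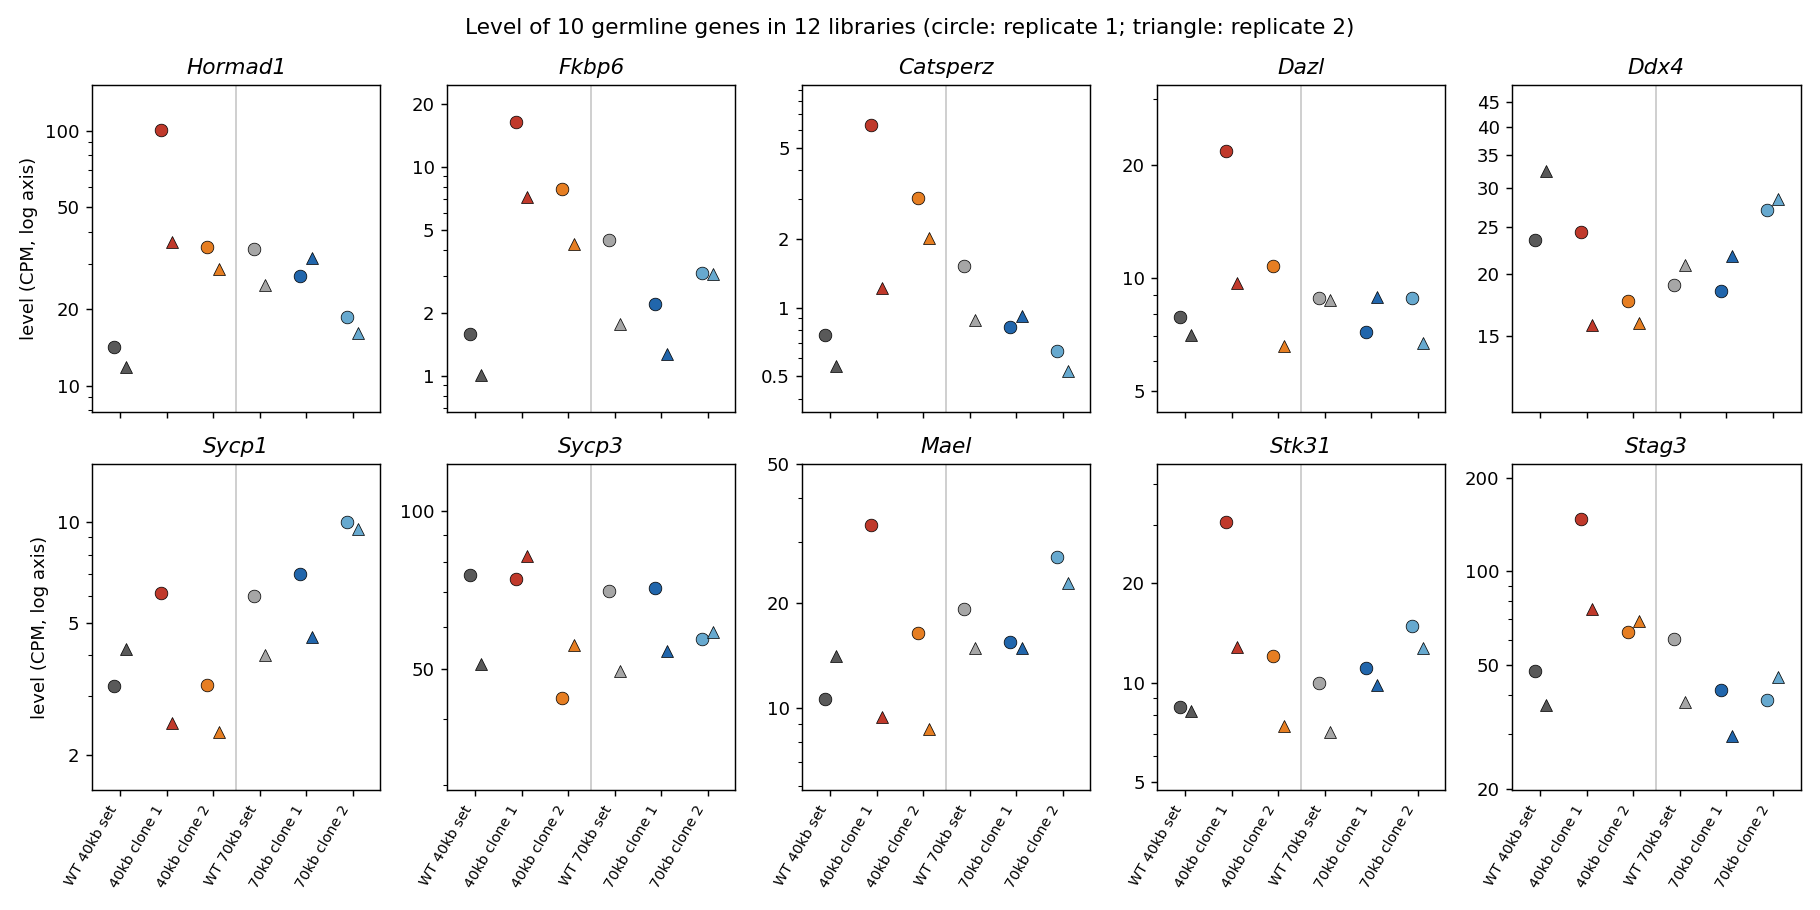
Level of each of the 10 genes in CPM on a log axis, by wild-type set or clone, with a circle for replicate 1 and a triangle for replicate 2. In 40kb clone 1 replicate 1, 7 of the 10 genes had their highest level of the 12 libraries, and Hormad1, Fkbp6, Catsperz and Stag3 were above their own wild type in all 4 libraries of the 40kb allele.

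Counted together, 4 of 10 members had all 4 libraries of the 40kb allele above both wild-type libraries, Hormad1, Fkbp6, Catsperz and Stag3, beside 16.4% of all genes. The edgeR fit called 6.43% of all genes in the 40kb comparison and 0.763% as higher. The 3 members named as standing out are among the latter, which the choice of members fixed. Without either control of that set, the fit called 0 genes and 0 members, and without 40kb clone 1 replicate 1 it called 527 genes and 2 members. The 2 were Hormad1 and Fkbp6. The median log2 fold change of the 10 was 0.82 against 0.06 over all genes, and 0.31 without that library. With the B number in the library names as a block, the fit called 357 genes and 0 members. Log2 values were then 1.32 for Hormad1, 2.12 for Fkbp6, 1.26 for Catsperz and -0.43 for Mael. The first replicate of each 40kb clone shares its B number with no other library, so those 2 libraries do not enter the blocked comparison.

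A second count concerned the library that stood apart. It was the highest of the 12 for Hormad1, Fkbp6, Catsperz, Dazl, Mael, Stk31 and Stag3, 7 of 10 members, and the lowest for 0. Over all genes it was the highest for 27.6% and the lowest for 27.4%. It was at least 2-fold above the second replicate of its own clone for 7 of 10 members, against 6.98% of all genes. Its excess was 2.75-fold for Hormad1, 5.15-fold for Catsperz and 3.55-fold for Mael. For Dazl, Mael and Stk31 the gap between these replicates (2.25, 3.55 and 2.38-fold) was wider than the fold of means between the allele and its wild type (1.64, 1.38 and 1.89).

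Other germline genes were taken from 5 lists: meiotic axis, cohesin and synaptonemal complex; recombination and entry into meiosis; germ granule and piRNA pathway; sperm and spermatid; and germline genes known for methylated promoters. Beside the 10 members the lists named 74 genes, of which 56 were tested. In 40kb clone 1 replicate 1, 32 of these 56 (57.1%) had their highest level of the 12 libraries, beside 27.6% of all genes. In that library 27 of the 56 were at least 2-fold above the clone's second replicate, beside 6.98% of all genes. Smc1b, the meiotic SMC subunit of cohesin, read 56.7 CPM there and 6.49 to 15.7 in the other 40kb libraries. Hormad2, the partner of Hormad1 on the axis, read 17.5 CPM against 1.99 to 5.05, and Rnf17, a granule protein and the piRNA-list gene with the most reads, 225 against 56.1 to 90.9.

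By function, that library held the maximum for 12 of 15 genes of recombination and entry, among them Dmc1, the meiotic recombinase, at 33.4 CPM against 12.1 to 17.1 in the other 40kb libraries. It did so for 10 of 16 genes of axis and complex, for 10 of 22 genes of granule and piRNA pathway, for 4 of 7 sperm genes and for 11 of 19 genes with methylated promoters, lists that hold the members too. In axis and complex, Syce2, a central-element protein with the most reads of that list, was at 81.4 CPM against 61.0 to 80.2. Ythdc2, an RNA helicase of meiotic entry, was at 45.3 against 29.1 to 34.8. Catsperd, another CatSper subunit, was at 5.26 against 1.29 to 4.02. The 4 genes of these lists that were lowest there were the cohesin kleisins Rec8 and Rad21l, at 3.08 and 0.023 CPM, and the Tudor proteins Tdrd1 and Tdrd7, at 1.55 and 0.594 CPM.

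Over all 4 libraries of the 40kb allele, few of these 56 genes were called. None rose past the threshold in edgeR, beside 0.763% of all genes, and 2 fell, beside 943 of all 16636. An unadjusted p under 0.05 was found for 16 of the 56, beside 3914 of all 16636 genes. The median log2 fold change of the 56 was 0.26, beside 0.06 over all genes. DESeq2 called 8 of them, beside 1874 of all genes, and Hormad2, Syce1, Piwil4 and Gtsf1 were higher. Tdrd7, a Tudor protein of germ granules, fell by 2.45 on the log2 scale (adjusted p = 0.0202), from 4.596 to 0.844 CPM on average. Tdrd5, also of the granules, fell by 0.98 (adjusted p = 0.0314), from 12.9 to 6.53 CPM. Piwil4, a PIWI protein that binds piRNAs, had a log2 fold change of 2.29 and missed edgeR's threshold (adjusted p = 0.0528). Without 40kb clone 1 replicate 1 the median of the 56 was -0.04, Tdrd7 was still called (adjusted p = 0.0460), Tdrd5 was not (adjusted p = 0.0573), and Tex15, a gene of meiotic recombination, was called as lower.

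Genes of the repressors of this class were looked at next. Of 14 PRC1.6 genes 1 was called in the 40kb comparison, beside 6.43% of all genes. It was Yaf2, a subunit shared by such complexes, which fell by 1.44 on the log2 scale (adjusted p = 0.0167), from 10.97 to 4.04 CPM. The library 40kb clone 1 replicate 1 was the highest of the 12 for 3 of the 14 genes, beside 27.6% of all genes. It was the lowest for 5 of the 14, beside 27.4% of all genes. Mga, the subunit of this list with the most reads, was at 906 CPM there and at 291 to 568 in the other 11 libraries. Rnf2 and Hdac2 were also highest there. The 5 lowest there were L3mbtl2, E2f6, Tfdp1, Ring1 and Rybp, with E2f6 at 20.5 CPM. Of 10 genes for DNA methylation, H3K9 methylation and Kdm5c, 1 was called. Dnmt3l, the cofactor of the de novo DNA methyltransferases, rose by 0.66 (adjusted p = 0.0399). Without 40kb clone 1 replicate 1 Yaf2 was called (adjusted p = 0.0347) and Dnmt3l was not (adjusted p = 0.0613).

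In 40kb clone 1 replicate 1, 8 of these 10 genes had their lowest level of the 12 libraries, beside 27.4% of all genes. The 8 were Dnmt1, Dnmt3a, Dnmt3b, Setdb1, Trim28, Ehmt1, Ehmt2 and Kdm5c. Dnmt3b, a de novo DNA methyltransferase, was at 195 CPM there and at 310 to 561 elsewhere. Trim28, the corepressor that recruits Setdb1, was at 1061 against 1404 to 2344, and Ehmt2, an H3K9 methyltransferase, at 88.8 against 139 to 212. The part of these genes, of the mitochondrial share or of the top-gene share in the members' levels was not tested.

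Primordial germ cell genes did not share the peak. Of 9, none was highest in 40kb clone 1 replicate 1, beside 27.6% of all genes. None was called in edgeR in the 40kb comparison, beside 6.43% of all genes. An unadjusted p under 0.05 was found there for 2, beside 3914 of all 16636 genes, and DESeq2 called Prdm14 higher. Kit, the receptor with the most reads of this list, was at 71.0 CPM in that library against 45.5 to 78.6 elsewhere. Tfap2c and Nanos3, which mark early germ cells, were lowest there, at 24.4 and 0.685 CPM, 2 of 9 beside 27.4% of all genes. In the 40kb comparison Dppa3 had the largest log2 fold change of the list, -1.73 (adjusted p of edgeR = 0.0882), from 39.55 to 11.93 CPM on average.

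Markers of other cell types moved as well. Of 8 trophoblast markers tested, 6 were called as lower in the 40kb comparison, beside 943 of all 16636 genes. Krt8, the keratin with the most reads, fell by 4.42 on the log2 scale (adjusted p = 0.0192), and Krt19 by 3.41 (adjusted p = 0.0175). The summed level of the 8 was 437 and 585 CPM in the 40kb-set controls and 17.8 to 51.1 with the 40kb allele. It was 108 and 443 in the 70kb-set controls and 82.8 to 751 with the 70kb allele. Tpbpa, a defining trophoblast marker, had 0 counts throughout, and Cdx2 was at 0 in 40kb clone 1 replicate 1. Of 14 fibroblast markers tested, 9 fell, among them Tagln by 4.19 (adjusted p = 0.0285), while Fn1, the one with the most reads, had a log2 value of 0.19. Without 40kb clone 1 replicate 1 the calls were 5 of 8 trophoblast and 1 of 14 fibroblast markers, with medians of -3.52 and -3.49. The summed level of the fibroblast markers, mostly Fn1, was 1307 to 1518 CPM, 944 to 1811, 1307 to 1332 and 857 to 1804 in the same order. Markers of 2-cell-like cells, a rare ES cell state, had a positive log2 value for 8 of 8 in the 40kb comparison, with a median of 1.51, or 1.09 without clone 1 replicate 1. None was called by edgeR, and DESeq2 called Zfp352 higher. Of the 8, 5 had an unadjusted p under 0.05, beside 3914 of all 16636 genes. Their summed level was 12.5 and 15.95 CPM in the controls, 77.6 and 22.8 in 40kb clone 1 and 58.9 and 12.44 in clone 2. ES markers were positive for 10 of 10, with a median of 0.48. An unadjusted p under 0.05 was found for 6, beside the same 3914 of all genes. None was called by edgeR, while DESeq2 called Zfp42, Esrrb and Klf4 higher. Hormad1 was low where the trophoblast sum was high: the 4 libraries with sums of 437 to 751 CPM had 11.9 to 24.9 CPM of Hormad1, and the other 8 had 18.6 to 100.7. The part of these cells in the members' levels was not tested.

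**Figure D3:**
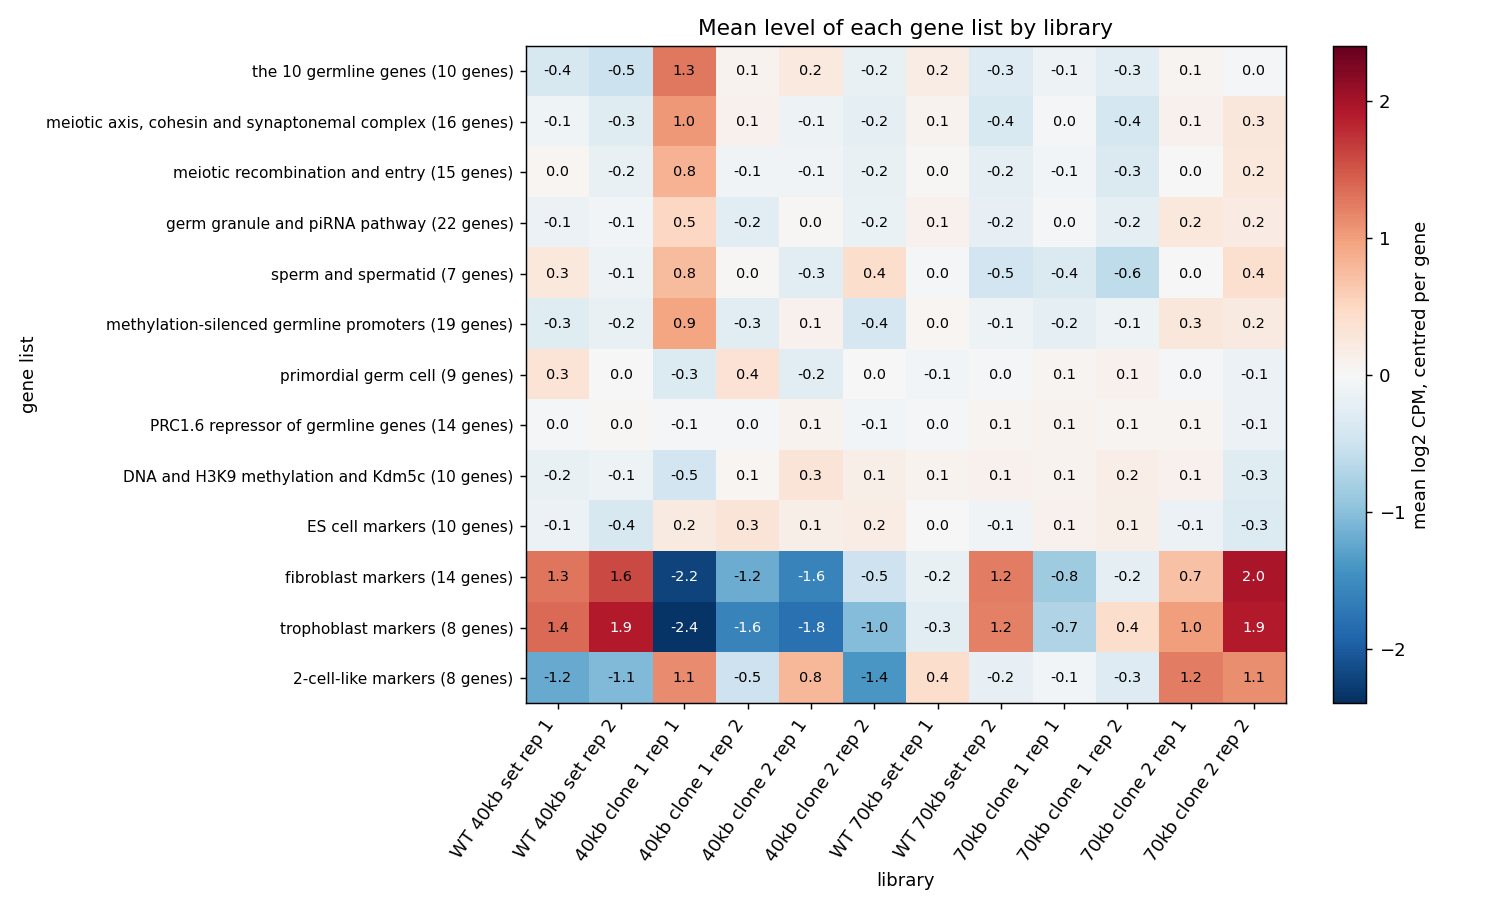
Mean log2 CPM of each gene list in each of the 12 libraries, centred per gene, with red above and blue below the gene's own mean. The 5 germline lists and the 10 genes peak in 40kb clone 1 replicate 1 (1.27 for the 10 genes), where the DNA and H3K9 methylation list is lowest (-0.45), and the trophoblast list runs from -2.36 in that library to 1.91 in 70kb clone 2 replicate 2.

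The wild-type sets differed for the members without any edit. Both controls of the 70kb set lay above both controls of the 40kb set for 5 of 10 members, beside 21.2% of all genes. They were Hormad1, Fkbp6, Catsperz, Dazl and Mael. Fkbp6 stood at 4.47 and 1.77 CPM there and Mael at 19.2 and 14.9. Ddx4 was lower there, at 19.0 and 20.8 CPM against 23.5 and 32.5. These values belong to the rule's own controls and carry no test.

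In the 70kb comparison, which the choice did not use, no member was called. The adjusted p of edgeR was 1 for all 10, 0 of 10 had an unadjusted p under 0.05, and DESeq2 also called 0. Over all genes edgeR called 0 of 16636 (0%), with 100 at an unadjusted p under 0.05 and 3 called by DESeq2. More genes than that would be expected under 0.05 even with no effect. The fit was thus conservative, and the 0 of 10 says little about small changes. With the B number as a block, 271 genes had an unadjusted p under 0.05. They included 1 member, Stk31, with a log2 value of 0.52. All 4 libraries of the 70kb allele lay above both wild-type libraries for 0 members, beside 2.4% of all genes, and below them for 0, beside 3.08%. Median log2 values were -0.07 for the members and 0.00 over all genes.

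Hormad1 was at 27.0 and 31.7 CPM in 70kb clone 1 and at 18.6 and 16.0 in clone 2, against 34.3 and 24.9 in its wild type. Clone 1 lay within the wild-type range and clone 2 below it. The log2 difference was -0.34 with an SE of 0.43 and a 95% interval from -1.28 to 0.60. Fkbp6 read 2.21, 1.27, 3.08 and 3.06 CPM against 4.47 and 1.77, with an interval from -1.50 to 0.75 on the log2 scale. Catsperz read 0.825, 0.921, 0.649 and 0.527 CPM against 1.52 and 0.884, with an interval from -1.89 to 0.45. These intervals exclude rises of the size described for the 40kb allele (1.95, 2.78 and 2.25), which were measured against another wild type. The difference between the alleles' effects was not tested.

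Among the other members, Stag3 was at 41.4, 29.6, 38.6 and 45.7 CPM against 60.7 and 38.0, a log2 difference of -0.35. Sycp1 had the largest positive value, 0.63 with a 95% interval from -0.27 to 1.54. It read 7.01 and 4.53 CPM in clone 1 and 9.98 and 9.56 in clone 2, against 6.01 and 4.00, so that 3 of 4 lay above both controls. Dazl was between 6.72 and 8.92 CPM in the 70kb libraries, against 8.87 and 8.71. Sycp3 had a log2 difference of 0.01 with an interval from -0.53 to 0.54, a bound of under 2-fold either way. Of the 56 other germline genes, edgeR called 0, none had an unadjusted p under 0.05 and DESeq2 called 0. Few genes of any kind were under 0.05 in this fit, as given above.

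**Figure D4:**
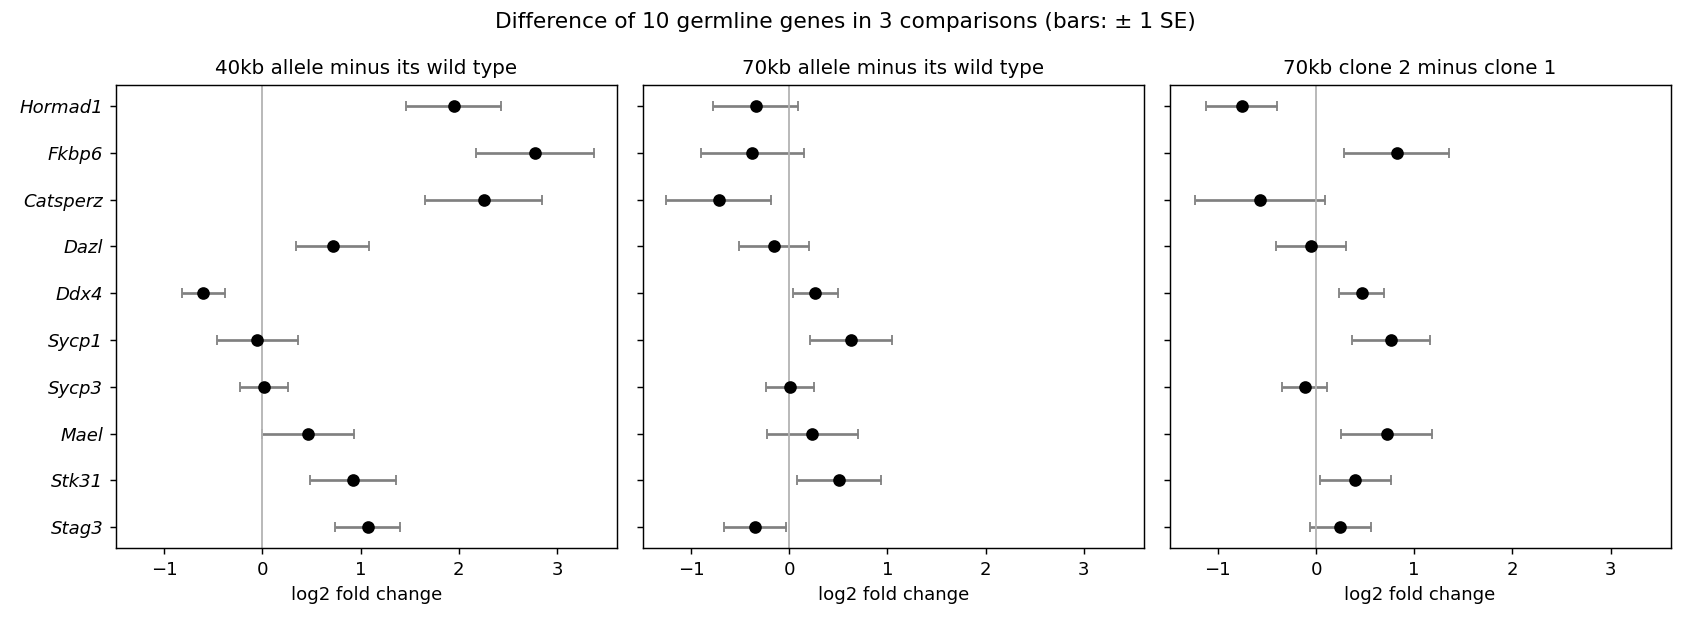
Log2 fold change of each gene in the edgeR fits, with bars of ± 1 SE, for the 40kb allele and the 70kb allele against their own wild type and for 70kb clone 2 against clone 1. The values of the 40kb comparison chose the members and are a description, and in the 70kb comparison the 10 values lie between -0.72 and 0.63.

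The 70kb clones differed from each other in levels, in opposite directions for different members. Both libraries of clone 2 lay above both of clone 1 for Fkbp6, Ddx4, Sycp1, Mael and Stk31, 5 of 10 members, beside 20.4% of all genes. Both lay below clone 1 for Hormad1 and Catsperz, beside 20.8% of all genes. Hormad1 had a log2 difference, clone 2 minus clone 1, of -0.76 with an SE of 0.36 and a 95% interval from -1.56 to 0.04. Mael was at 27.2 and 22.8 CPM in clone 2 and at 15.5 and 14.9 in clone 1, and Ddx4 at 27.0 and 28.5 against 18.5 and 21.8.

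None of these differences passed the test. The adjusted p of edgeR ran from 0.558 for Hormad1 to 0.978 for Dazl, 0 of 10 had an unadjusted p under 0.05, and DESeq2 called 0 of 10. Without the filter on low counts Hormad1 was called, at a log2 value of -0.77 (adjusted p = 0.0189). Over all genes the filtered fit called 2, or 0.012%: Grb10 (3.52) and Nnat (-4.72), both imprinted genes, which are named here after their values were seen. DESeq2 called 179 genes. With the replicate block, whose B number goes with the replicate number in this set, edgeR called 347 genes and 0 members. In that fit 6 of 10 members had an unadjusted p under 0.05. Nothing is read from that count, since the fit with the block also called far more of all genes than the fit without it. The smallest adjusted p of edgeR among the members was 0.0564, for Mael.

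Most other germline genes were higher in clone 2, as Mael and Ddx4 were and Hormad1 and Catsperz were not. Of the 56, 31 were higher in both libraries of clone 2 than in both of clone 1, beside 20.4% of all genes. Another 3 were lower in both, beside 20.8% of all genes. The median log2 difference was 0.39 against -0.01 over all genes, and 41 of the 56 values were positive. None of the 56 was called by edgeR or DESeq2, and 9 had an unadjusted p under 0.05, beside 1579 of all 16636 genes. Other lists lay apart between the clones too, with no gene called by edgeR. The summed level of the 8 2-cell-like markers was 84.4 and 80.9 CPM in clone 2 and 29.5 and 23.1 in clone 1. Zscan4c, which leads that list, has near-identical copies among which the counting could split reads. The trophoblast sum was 311 and 751 CPM in clone 2 against 82.8 and 203 in clone 1. Fibroblast markers were higher in clone 2 for 14 of 14 by the log2 difference, with a median of 1.602 and 6 at an unadjusted p under 0.05, and DESeq2 called Col1a1 higher. ES markers were lower for 10 of 10, with a median of -0.31 and 2 at an unadjusted p under 0.05. All 10 genes of DNA and H3K9 methylation and Kdm5c had a negative log2 difference, with a median of -0.24 and none called by either tool. The part of any of these in the members' levels was not tested.

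The genes whose log2 level over the 12 libraries was most like that of a member were named by Pearson's r, as a description, since libraries of a clone are not independent and 40kb clone 1 replicate 1 weighs on all of them. For Hormad1 they were H2-M5, an MHC class I gene (0.96), Trap1a (0.95), Cox6c and Ndufb5, both respiratory chain subunits (0.95 each), and Ech1 (0.95). For Fkbp6 they were Hydin, a protein of motile cilia (0.95), Lrmp (0.94), Zfp951 (0.94), Sumf2 (0.94) and Treml2 (0.94). For Catsperz they were Sohlh2, a transcription factor of early germ cells (0.97), Hsd17b11 (0.93), Trappc6b (0.93), Ciao2a (0.92) and Pde9a (0.92). Sohlh2 was at 26.6 CPM in 40kb clone 1 replicate 1 and at 6.93 to 18.5 in the other 11 libraries, and its r without that library was 0.95. H2-M5 kept an r of 0.94 with Hormad1 there.

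Some counts carry a doubt about their source. RefSeq has other genes overlapping Hormad1 (Gm40097), Sycp1 (Gm33866), Sycp3 (Chpt1), Stk31 (Gm17060) and Stag3 (Gal3st4 and Gpc2). Whether the counting used strand is not stated here, so reads of an overlapping partner cannot be told apart in these 5. Fkbp6, Catsperz, Dazl, Ddx4 and Mael have no overlapping gene in that annotation.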

How the data were processed

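The 12 libraries were made from polyadenylated RNA with a kit that keeps strand, per the labels' protocols. The deposited table holds whole-number counts per gene made by the authors, and the submitters' processing notes list mm9, STAR and edgeR. Of 37310 identifiers 32620 matched a symbol. The other samples of the series were not analysed here. Totals of 34514493 to 46605508 counts per library set the precision of low genes such as Catsperz.

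Counts were tested with edgeR 4.0.16 (limma 3.58.1, R 4.3.3): TMM scaling, the default filter on low counts and a quasi-likelihood test, with Benjamini-Hochberg adjustment over 16636 genes and a threshold of 0.05. The fit with a mean per group (8 residual degrees of freedom) gave the comparisons with wild type, and a fit with a mean per clone (6) the comparison of the 70kb clones. Both used all 12 libraries, so each gene's spread was shared by the 40kb and 70kb sets. In the 70kb set the B number of the library names goes with the replicate number, 13 for replicate 1 and 14 for replicate 2. The differences between replicates of wild type and the 2 clones correlated over genes at 0.68, 0.27 and 0.21. The B numbers were therefore taken to pair these libraries, and a fit with them as a block was an alternative. The labels do not say what the B numbers mean, and the pairing was not tested in the 40kb set. DESeq2 1.42.0, no filter, other controls, summed clones and left-out libraries were alternatives. The fit was tested on simulated counts. The members and lists were chosen with earlier results of these data known. Named genes are the 10 members, up to 3 called genes and the gene with the most reads of each list, and the 5 genes most like Hormad1, Fkbp6 and Catsperz, without predicted genes. Exceptions, named after their values were seen, illustrate single lists.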

Additional observations from a re-analysis of the deposited data

Results flagged for a closer look

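Of 20 groups of 4 libraries examined (10 genes in each allele), 2 held a library far from the other 3, both in the 40kb allele, whose values chose the members. Both times it was 40kb clone 1 replicate 1. Chance would flag about 1 in 20 independent groups, a rate that does not apply here, since this library stood apart for many genes and met the same criterion in 5.37% of all 16636 genes tested. For Hormad1 it was at 100.7 CPM with the next library at 36.7, so that the gap was 0.888 of the group's range. For Stag3 it was at 148 CPM with the next at 75.6, a gap of 0.860 of the range. This library also had the highest mitochondrial share (3.98%), and the part of that in the 2 values was not tested.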

How the results depend on the processing

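In the 40kb comparison, 1070 genes and 3 members were called. DESeq2 called 1874 genes, counts summed per clone 3 genes and 0 members, and the wild type of the other set as control 0 genes and 0 members, where Hormad1 had 0.76 and Fkbp6 1.51 on the log2 scale. Only the libraries of the set gave 1 member. Leaving out 1 library gave 0 to 1099 genes and 0 to 3 members: 0 genes without either wild-type library, 527 without clone 1 replicate 1, 277 without clone 1 replicate 2 and 279 without clone 2 replicate 1. In the 70kb comparison 1 gene was called without the filter on low counts, 3 by DESeq2, and 1 with all 4 wild-type libraries as control. Members that changed sign there with all 4 were Hormad1 (0.25), Fkbp6 (0.26) and Sycp3 (-0.032). With the wild type of the other set they were Hormad1 (0.84), Fkbp6 (0.89), Catsperz (0.15), Dazl (0.084), Ddx4 (-0.22) and Sycp3 (-0.071). With 1 library left out, Fkbp6 ran from -0.89 to 0.44, Stag3 from -0.65 to 0.031 and Sycp3 from -0.23 to 0.28. Between the 70kb clones 2 genes were called, 741 and 1 member (Hormad1) without the filter, 179 by DESeq2, 0 in the set alone and 1 to 2 with 1 library left out, where Dazl ran from -0.21 to 0.13 and Sycp3 from -0.30 to 0.10. The cause was not tested. Leaving 40kb clone 1 replicate 1 out of the fit, chosen after seeing the data, changed no call of a member in the 70kb comparisons. With the B number of the library names as a replicate block, 357 genes and 0 members were called in the 40kb comparison, where Catsperz had 1.26 and Mael -0.43, and 347 genes between the 70kb clones. The block changed no other call of a member.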
